A study of Mus musculus with 8 samples.

Results

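The 10 genes described here are glucocorticoid-responsive genes, transcripts that adrenal steroid hormones are known to raise in many tissues: Fkbp5, Sgk1, Zbtb16, Tsc22d3, Pdk4, Sult1a1, Plin4, Errfi1, Map3k6 and Arrdc2. They were found by symbol among the 15693 genes of the deposited tables, and all 10 were present. Polyadenylated RNA was sequenced from whole brain cortex of 8 mice aged 4 months, 4 labelled WT and 4 labelled TDP-43Q331K, a line with an amyotrophic lateral sclerosis (ALS) mutation in the RNA-binding protein TDP-43. The sample labels give the WT genotype as C57BL/6J, whereas the design text of the series names c57bl6/n. Any difference of substrain between the groups cannot be told apart from the mutation. No treatment is labelled, and the sources used here name neither the promoter or edit behind TDP-43Q331K nor the hour of dissection. Whether replicates came from separate litters is not stated, so p values measure the spread between these libraries.

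Glucocorticoids, corticosterone in the mouse, cross into the brain and bind the glucocorticoid receptor encoded by Nr3c1 and the mineralocorticoid receptor encoded by Nr3c2. The hormone-bound receptor moves to the nucleus, binds DNA at glucocorticoid response elements (GREs), and raises or lowers nearby genes. Circulating hormone follows the time of day and stress, and neurons, glia and vessel cells of the cortex all respond.

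The RefSeq promoter windows show where the letters of a GRE lie close to a transcription start. Each window runs from 250 bases before a start to 50 after it, on GRCm38.p6, a build older than the GRCm39 named in the submitters' processing notes. The half-site searched was AGAACA, the full GRE was that half-site, 3 free bases and its reverse complement TGTTCT, and the looser core was GNACA, 3 free bases and TGTNC. Both strands were read, and a full GRE holds a core and a pair of half-sites. Windows existed for 9 of the 10 genes, and for Zbtb16 none was used. Over all 32851 windows of mouse genes, 3 held the full GRE (0.00913%), 156 the core (0.475%) and 6233 the half-site (19.0%). Of the 17 windows of the 9 genes, 1 held the full GRE, 2 the core and 5 the half-site (29.4%). The 4 windows below, 1 for each gene with a match, are shown 5′ to 3′ along the gene with the matches in capitals. For Sgk1 the window with the full GRE is shown, and the other 2 of its windows with a match hold a half-site alone, beginning 195 and 13 bases before their starts.
Sgk1, 1 of its 6 windows (chr10:21993640-21993939, plus strand), holds the full GRE beginning 189 bases before the start.
Sgk1: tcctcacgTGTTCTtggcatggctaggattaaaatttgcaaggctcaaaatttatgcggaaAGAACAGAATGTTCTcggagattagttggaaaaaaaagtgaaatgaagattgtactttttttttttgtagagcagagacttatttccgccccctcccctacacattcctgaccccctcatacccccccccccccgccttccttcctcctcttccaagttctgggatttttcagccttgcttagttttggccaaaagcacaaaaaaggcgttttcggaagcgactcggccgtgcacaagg
Map3k6 (chr4:133240568-133240867, plus strand) holds a core beginning 181 bases before the start.
Map3k6: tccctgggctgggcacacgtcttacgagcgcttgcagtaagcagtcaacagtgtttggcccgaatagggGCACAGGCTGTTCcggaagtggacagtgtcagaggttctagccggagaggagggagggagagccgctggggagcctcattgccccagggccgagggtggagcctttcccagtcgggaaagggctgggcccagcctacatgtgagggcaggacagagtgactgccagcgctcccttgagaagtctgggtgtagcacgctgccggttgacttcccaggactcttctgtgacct
Tsc22d3, 1 of its 3 windows (chrX:140600473-140600772, minus strand), holds a half-site alone, beginning 185 bases before the start.
Tsc22d3: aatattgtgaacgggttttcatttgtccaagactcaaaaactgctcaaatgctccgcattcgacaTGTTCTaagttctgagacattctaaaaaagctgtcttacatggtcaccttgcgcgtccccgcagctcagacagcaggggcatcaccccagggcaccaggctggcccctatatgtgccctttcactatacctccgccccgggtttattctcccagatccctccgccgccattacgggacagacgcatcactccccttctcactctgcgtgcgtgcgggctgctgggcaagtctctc
Sult1a1 (chr7:126676369-126676668, minus strand) holds a pair of half-sites, beginning 212 and 34 bases before the start.
Sult1a1: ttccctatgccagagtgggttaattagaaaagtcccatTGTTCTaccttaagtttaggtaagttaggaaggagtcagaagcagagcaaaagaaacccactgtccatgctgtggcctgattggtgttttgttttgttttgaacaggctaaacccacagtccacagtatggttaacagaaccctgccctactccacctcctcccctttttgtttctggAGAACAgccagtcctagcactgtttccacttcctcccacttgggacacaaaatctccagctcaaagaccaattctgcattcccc
The windows of Fkbp5, Pdk4, Plin4, Errfi1 and Arrdc2 held neither a core nor a half-site. Response elements outside these short windows were not searched, and because counts are summed over a gene, the start used in these libraries is not known.

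Libraries held between 45253021 and 58115164 counts, and levels are CPM, each gene's count relative to the whole library, on library sizes scaled by TMM, a normalisation that assumes most genes do not differ. Genotypes were compared with edgeR's two-sided quasi-likelihood test over all genes, with Benjamini-Hochberg adjustment and a threshold of 0.05, and a fold change is TDP-43Q331K over WT. Tardbp, which encodes TDP-43, did not overlap between groups and stood at -0.25 on the log2 scale (edgeR adjusted p 0.106). Libraries differed in markers of adjoining tissue and in Xist. The summed level of 5 olfactory bulb markers (Eomes, Doc2g, Th, Cdhr1 and Tbx21) came to 13.3, 16.6, 128 and 89.5 CPM across WT replicates 1 to 4, and to 88.5, 156, 141 and 44.0 CPM across the mutant replicates 1 to 4. Choroid plexus markers summed to 416 CPM in WT replicate 1 and 601 CPM in TDP-43Q331K replicate 4, against 18.8 to 215 CPM elsewhere. Striatal markers summed to 471 CPM in WT replicate 3 and 585 CPM in TDP-43Q331K replicate 3, against 889 to 1300 CPM elsewhere. Xist, transcribed in female cells, was at least 876 CPM in WT replicates 2 and 3 and TDP-43Q331K replicates 1 and 2, and at most 1.37 CPM in the others.

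Of the 10 genes, 1 rose in TDP-43Q331K cortex past edgeR's test, Tsc22d3, and 0 fell. Of all genes, 0.344% were called higher and 0.599% lower, 0.943% in total. The log2 fold change was positive in 7 of the 10 and negative in 3. An unadjusted p under 0.05 was met by 4, all positive (Tsc22d3, Sgk1, Arrdc2 and Errfi1), a mark met with a higher level by 7.91% of all genes and in either direction by 15.7%. Groups did not overlap in 3 genes, all higher in TDP-43Q331K, where 4.49% of all genes were higher and 5.19% lower without overlap. The median log2 fold change was 0.107 over the 10 genes and 0.004 over all genes. DESeq2, the alternative count test, called 3 of the 10 higher (Tsc22d3, Sgk1 and Arrdc2) and 0 lower, against 1.84% of all genes called higher and 4.47% in either direction.

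**Figure D1:**
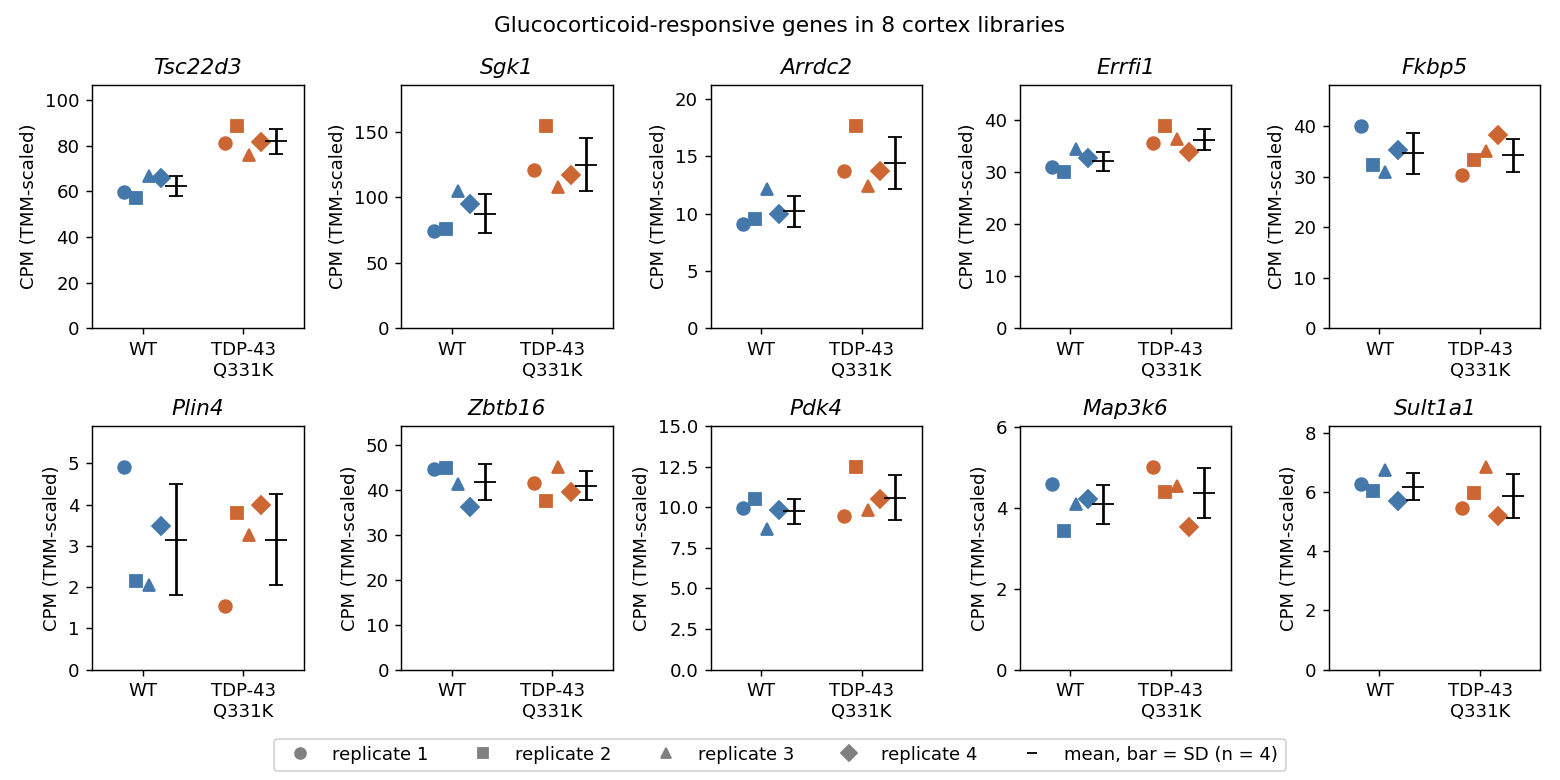
Level of each of the 10 genes in every library, in TMM-scaled CPM, with WT in blue and TDP-43Q331K in orange, a marker shape for each replicate number, and the mean with a bar of 1 SD (n = 4) in black. All 4 TDP-43Q331K libraries lie above all WT libraries in Tsc22d3, Sgk1 and Arrdc2, while Fkbp5, Plin4, Zbtb16, Pdk4, Map3k6 and Sult1a1 overlap.

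Tsc22d3 encodes GILZ, the glucocorticoid-induced leucine zipper protein, which carries part of the anti-inflammatory action of these hormones by holding back NF-kB and AP-1. WT replicates 1 to 4 gave 59.9, 57.3, 66.6 and 65.8 CPM, and TDP-43Q331K replicates 1 to 4 gave 81.3, 88.9, 76.0 and 81.5 CPM; later values follow this order. Every TDP-43Q331K library was above every WT library, and TDP-43Q331K replicate 2 was highest. The mean rose from 62.4 ± 4.55 to 81.9 ± 5.28 CPM (SD, n = 4), which was 1.31-fold, or 0.39 on the log2 scale (SE 0.06, edgeR adjusted p 0.0171). The gene lies on the X chromosome, and with Xist as a covariate the value was 0.39 (edgeR adjusted p 0.0303). The call was lost with marker covariates, at an edgeR adjusted p of 0.17 with thalamic and olfactory markers and 0.0539 with choroid plexus markers, the last chosen once the data had been seen. Its edgeR adjusted p was 0.0774 when WT replicate 1 was left out, 0.0507 when WT replicate 2 was, and 0.0612 when TDP-43Q331K replicate 1 was, with log2 fold changes of 0.35 to 0.43 over the 8 fits that leave out 1 library.

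Sgk1 encodes the serum- and glucocorticoid-regulated kinase, which acts on ion channels, transporters and ubiquitin ligases, and its window above holds the full GRE. Its levels were 74.4, 76.2, 105 and 95.3 CPM in WT and 121, 155, 108 and 117 CPM in TDP-43Q331K. The groups did not overlap, but the gap between WT replicate 3 and TDP-43Q331K replicate 3 was small beside the spread within each group. Mean levels were 87.7 ± 14.8 and 125 ± 20.2 CPM (SD, n = 4). The difference of 0.52 on the log2 scale (SE 0.13) missed the threshold in edgeR (adjusted p 0.0966) and passed in DESeq2 (adjusted p 0.00382).

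Arrdc2 encodes an alpha-arrestin, a family of adaptors that bring ubiquitin ligases to membrane proteins. It was measured at 9.08, 9.58, 12.2 and 10 CPM in WT and at 13.7, 17.7, 12.4 and 13.7 CPM in TDP-43Q331K. The libraries stood in the same order as for Sgk1, from WT replicate 1, the lowest, to TDP-43Q331K replicate 2, the highest. The means of 10.2 ± 1.37 and 14.4 ± 2.28 CPM (SD, n = 4) lay 0.50 apart on the log2 scale (SE 0.12, edgeR adjusted p 0.0951, DESeq2 adjusted p 0.00781).

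Errfi1 encodes MIG6, a feedback inhibitor of the epidermal growth factor receptor. Its levels were 30.9, 30, 34.4 and 32.6 CPM in WT and 35.6, 38.9, 36.4 and 33.9 CPM in TDP-43Q331K. WT replicate 3 was above TDP-43Q331K replicate 4, so the groups overlapped. The means were 32 ± 1.91 and 36.2 ± 2.07 CPM (SD, n = 4), and the difference of 0.18 on the log2 scale (95% interval 0.04 to 0.31) did not pass (edgeR adjusted p 0.194).

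These 4 genes went with the olfactory bulb markers in some libraries and not in others. WT replicates 1 and 2, the libraries with the lowest marker sums, were the lowest in each of the 4 genes, and TDP-43Q331K replicate 2, with the highest sum, was the highest in each. Within WT, Sgk1 and Arrdc2 rose in the order of the marker sum. Within TDP-43Q331K, Errfi1 did, and Tsc22d3, Sgk1 and Arrdc2 did not. TDP-43Q331K replicate 3 (141 CPM of markers) was near WT replicate 3 (128 CPM). Their levels were 108 and 105 CPM in Sgk1 and 12.4 and 12.2 CPM in Arrdc2. They were 36.4 and 34.4 CPM in Errfi1 and 76.0 and 66.6 CPM in Tsc22d3. TDP-43Q331K replicate 1 had a marker sum of 88.5 CPM, close to WT replicate 4 (89.5 CPM) and below WT replicate 3 (128 CPM). It was above both in Tsc22d3, Sgk1, Arrdc2 and Errfi1. In the 11-marker sum that adds 6 thalamic markers, TDP-43Q331K replicate 1 was below WT replicates 3 and 4, at 138 against 173 and 146 CPM. TDP-43Q331K replicate 4 had 44.0 CPM of olfactory signal, below WT replicates 3 and 4. It was above every WT library in Tsc22d3, Sgk1 and Arrdc2, and below WT replicate 3 in Errfi1. Its thalamic sum was 118 CPM, against 44.5 to 60.4 CPM in the other libraries. With the mean log2 level of 11 thalamic and olfactory markers as a covariate, Tsc22d3 was at 0.29 (edgeR adjusted p 0.17), Sgk1 at 0.27 (0.496), Arrdc2 at 0.33 (0.5) and Errfi1 at 0.09 (0.706), and 9.56% of all genes had an unadjusted p under 0.05. All 11 markers were positive, and edgeR and DESeq2 each called 0. In the fit of genotype alone, 1 had an edgeR unadjusted p under 0.05, beside 15.7% of all genes. The list summed to between 65.2 and 173 CPM in WT and between 138 and 216 CPM in TDP-43Q331K. No marker was at 0 in any library, although WT replicates 1 and 2 held Tbx21 at 0.0605 and 0.0862 CPM, and the part of adjoining tissue in the gene differences was not tested beyond this covariate. In whole tissue, more cells of a type and more RNA per cell cannot be told apart.

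**Figure D2:**
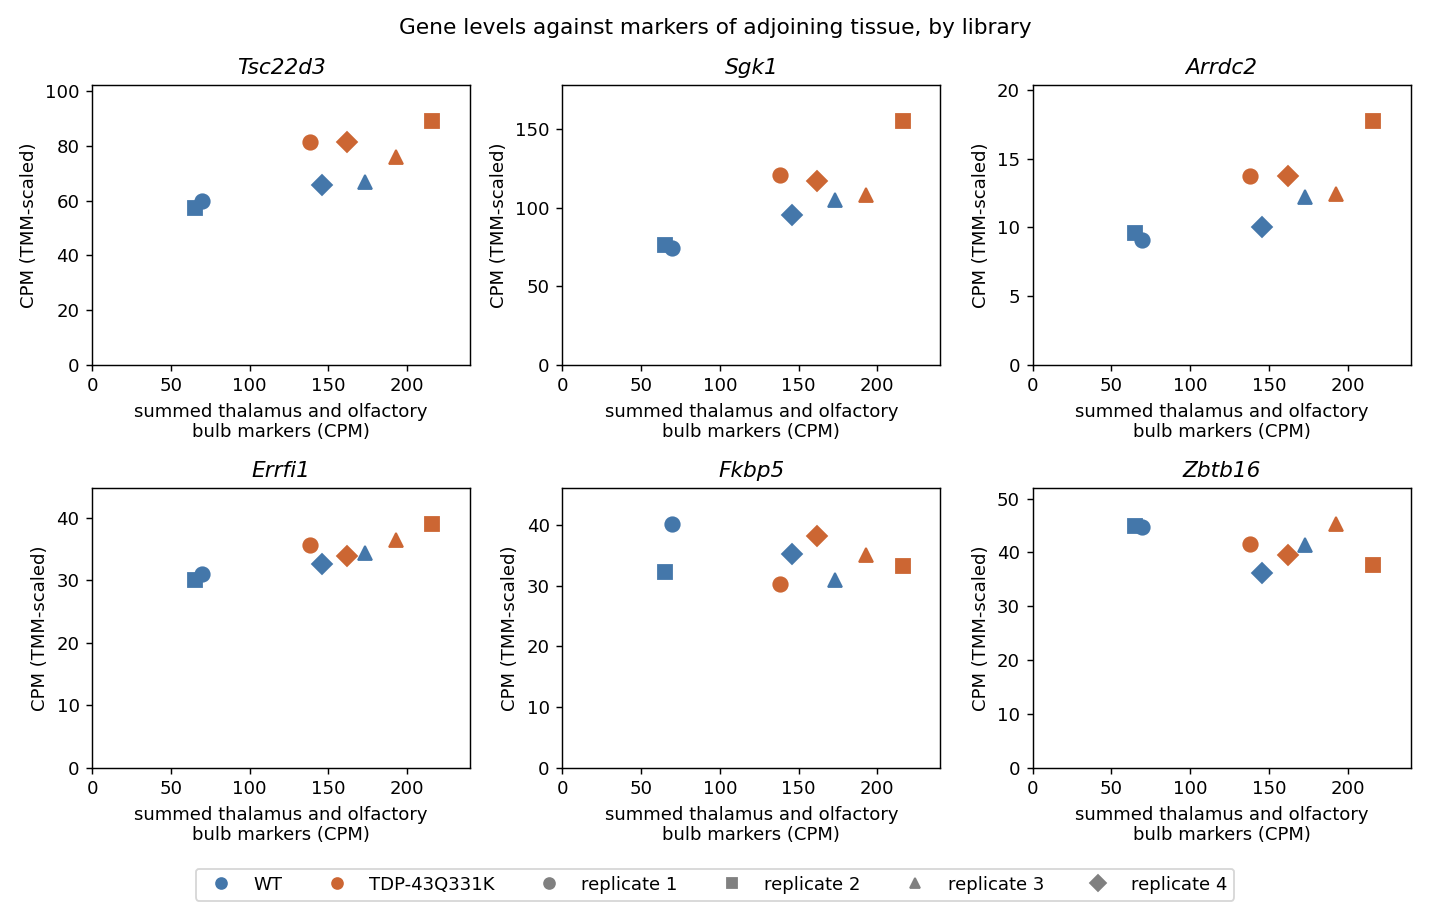
Level of 6 of the genes (vertical axis, TMM-scaled CPM) against the summed level of 11 thalamus and olfactory bulb markers (horizontal axis, CPM), 1 point per library. In the panels of Tsc22d3, Sgk1, Arrdc2 and Errfi1, WT replicates 1 and 2 sit at the lower left and TDP-43Q331K replicate 2 at the upper right, and TDP-43Q331K replicate 1 sits above WT replicates 3 and 4 at a lower marker sum.

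Fkbp5 encodes FKBP51, a co-chaperone that lowers the hormone affinity of the glucocorticoid receptor and so closes a short feedback loop. It is widely used as a readout of receptor activity. Its levels were 40.1, 32.2, 30.9 and 35.3 CPM in WT and 30.3, 33.2, 35.1 and 38.2 CPM in TDP-43Q331K. The lowest and the highest library belonged to different groups from those of Sgk1, with TDP-43Q331K replicate 1 lowest and WT replicate 1 highest. Means of 34.6 ± 4.10 and 34.2 ± 3.32 CPM (SD, n = 4) gave a fold change of 0.99 with a 95% interval of 0.858 to 1.14 (edgeR adjusted p 0.958), which leaves out a change of the size seen in Tsc22d3.

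Plin4 encodes a perilipin, a coat protein of lipid droplets. It was the least expressed of the 10 per length and varied most between libraries, at 4.92, 2.14, 2.04 and 3.49 CPM in WT and 1.54, 3.79, 3.26 and 4.00 CPM in TDP-43Q331K. WT replicate 1 was highest and TDP-43Q331K replicate 1 lowest, as in Fkbp5. Counts ran from 77 to 244 over the 8 libraries, the SD was 43.0% of the mean in WT and 35.4% in TDP-43Q331K, and the fold change of 1.01 had a 95% interval of 0.605 to 1.67 (edgeR adjusted p 0.996), an interval that also holds the 1.43-fold of Sgk1.

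Fkbp5 and Plin4 stood in nearly the same order over the libraries, and both went with Xist. The 4 libraries with little Xist held the 4 highest Fkbp5 levels, between 35.1 and 40.1 CPM, against 30.3 to 33.2 CPM in the 4 libraries with high Xist. In Plin4 these libraries overlapped, because TDP-43Q331K replicate 2 had high Xist and 3.79 CPM of Plin4. The Xist term was examined after these values were seen, in a fit of genotype and log2 Xist over all genes. From the lowest to the highest Xist level, the fitted log2 change was -0.24 for Fkbp5 (SE 0.07, edgeR unadjusted p 0.0102, adjusted p 0.64) and -0.74 for Plin4 (SE 0.31, edgeR unadjusted p 0.0394, adjusted p 0.72), and neither passed. The term passed in 0.0765% of all genes, and 6.89% had an unadjusted p under 0.05. The Xist term of Sgk1 was 0.19 (SE 0.14, edgeR adjusted p 0.762). WT replicate 1 and TDP-43Q331K replicate 4, highest in both Fkbp5 and Plin4, were also the libraries with the most choroid plexus marker signal. In a fit with those markers, chosen once the data had been seen, the genotype value was -0.17 for Fkbp5 (edgeR adjusted p 0.236) and -0.55 for Plin4 (edgeR adjusted p 0.255). All 9 choroid plexus markers were positive, and edgeR and DESeq2 each called 0. In the fit of genotype alone, 1 had an edgeR unadjusted p under 0.05, beside 15.7% of all genes. Their part in the Fkbp5 and Plin4 values, and that of sex, was not tested further.

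**Figure D3:**
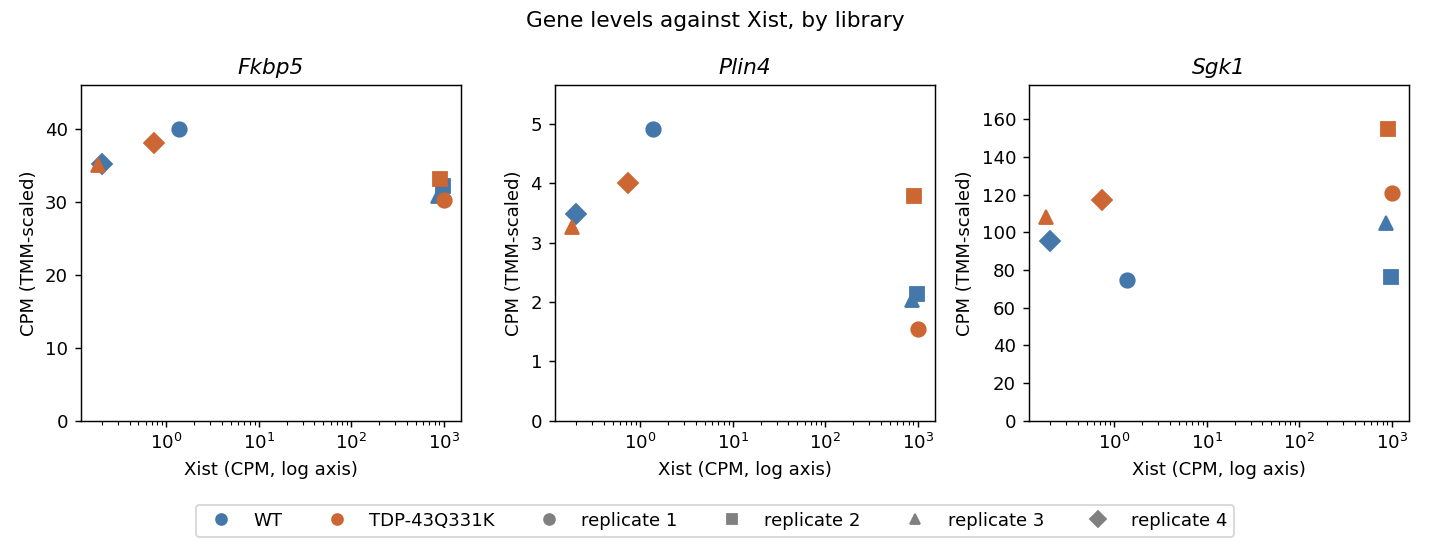
Levels of Fkbp5, Plin4 and Sgk1 (vertical axis, TMM-scaled CPM) against Xist (horizontal log axis, CPM), 1 point per library. The 4 libraries with Xist of at most 1.37 CPM have the highest Fkbp5, from 35.1 to 40.1 CPM. Sgk1 runs from 74.4 to 117 CPM in them and from 76.2 to 155 CPM in the libraries with high Xist.

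Zbtb16 encodes PLZF, a transcription factor of the zinc finger and BTB family that steroid hormones raise in many cell types. It was at 44.8, 44.9, 41.4 and 36.2 CPM in WT and at 41.5, 37.6, 45.2 and 39.5 CPM in TDP-43Q331K. Both groups covered nearly the same range, and WT replicate 4 was lowest. The fold change of 0.979 had a 95% interval of 0.866 to 1.11 (edgeR adjusted p 0.89). Like that of Fkbp5, this interval lies below the 1.31-fold of Tsc22d3.

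Pdk4 and Sult1a1 are metabolic enzymes and Map3k6 is a signalling kinase. Pdk4, pyruvate dehydrogenase kinase, which slows the entry of glucose carbon into the citric acid cycle, was between 8.69 and 10.5 CPM in WT and between 9.44 and 12.5 CPM in TDP-43Q331K, with TDP-43Q331K replicate 2 again highest. Its fold change was 1.08 (95% interval 0.928 to 1.26, edgeR adjusted p 0.621). Map3k6, also called ASK2, a MAP kinase kinase kinase of stress signalling, was between 3.43 and 4.60 CPM in WT and between 3.54 and 5.02 CPM in TDP-43Q331K. Its fold change was 1.07 (95% interval 0.876 to 1.31, edgeR adjusted p 0.759). Sult1a1, a phenol sulfotransferase, was between 5.69 and 6.76 CPM in WT and between 5.18 and 6.86 CPM in TDP-43Q331K, with a fold change of 0.948 (95% interval 0.806 to 1.11, edgeR adjusted p 0.767). Sult1a1 shares 61 exon bases with Sgf29 on the other strand and Plin4 shares 17 with Hdgfl2, and the sources used here do not say whether counting used strand.

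Per length of annotated exon, the 10 genes were spread from 0.545 to 17.9 CPM per kb in WT. Sgk1, at 17.9 ± 3.01 CPM per kb (SD, n = 4), and Tsc22d3, at 14.4 ± 1.05 CPM per kb (SD, n = 4), headed the order, and the ranges of this pair overlapped. Errfi1 (8.93 CPM per kb) and Zbtb16 (7.92 CPM per kb) followed. Sult1a1, Fkbp5, Arrdc2 and Pdk4 lay between 4.11 and 2.78 CPM per kb, and Map3k6 (0.888 CPM per kb) and Plin4 (0.545 CPM per kb) were lowest. In TDP-43Q331K the order was led by the same pair, at 25.6 and 18.9 CPM per kb, and Arrdc2, at 4.46 CPM per kb, came before Sult1a1 at 3.89 and Fkbp5 at 3.62 CPM per kb.

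The receptors and the proteins that handle them gave no called difference. Nr3c1 was at 141, 121, 127 and 133 CPM in WT and at 132, 131, 130 and 129 CPM in TDP-43Q331K, with a fold change of 0.999 (95% interval 0.925 to 1.08, edgeR adjusted p 0.996). The TDP-43Q331K values lay inside the WT range. Nr3c2 was between 58.5 and 63.8 CPM in WT and was more spread in TDP-43Q331K, at 42.0, 54.0, 64.6 and 72.5 CPM, or -0.09 on the log2 scale (SE 0.13, edgeR adjusted p 0.798). Of 9 receptor chaperones and co-chaperones, edgeR and DESeq2 each called 0, 1 had an unadjusted p under 0.05, and the median log2 fold change was -0.005. That gene was Fkbp4, which encodes FKBP52, the co-chaperone that competes with FKBP51 and aids receptor transport, at 98.6 ± 7.09 CPM in WT and 113 ± 12.6 CPM in TDP-43Q331K (SD, n = 4, edgeR adjusted p 0.256). Hsp90aa1, the inducible Hsp90 that holds the receptor ready for hormone, was at -0.12 (edgeR adjusted p 0.346), Hsp90ab1 at -0.05 and Ptges3, which encodes the co-chaperone p23, at 0.03. Of 5 coregulators, 0 passed in edgeR or DESeq2 and 1 had an unadjusted p under 0.05, the coactivator gene Ncoa3, at 0.12 (edgeR adjusted p 0.307). Of 3 measured genes that regenerate or export steroid, 0 passed in edgeR or DESeq2 and 0 had an unadjusted p under 0.05. Of all genes, 15.7% had an edgeR unadjusted p under 0.05, so these counts do not set the lists apart. Hsd11b1, which encodes the enzyme that remakes active hormone inside cells, was at 0.05, H6pd, its supplier of cofactor, at -0.04, and the efflux pump gene Abcb1a at -0.07.

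Of 21 measured genes of a wider list of glucocorticoid-responsive genes, 0 passed edgeR's test and DESeq2 called 2, both higher. At an edgeR unadjusted p under 0.05, 3 were higher and 2 lower. Of all genes, 15.7% met that mark and DESeq2 called 4.47%. The median log2 fold change was 0.093, and 15 of the 21 were positive. Nfkbia, which encodes the NF-kB inhibitor IkB-alpha, was at 17.6, 20.7, 24.2 and 22.9 CPM in WT and at 29.9, 31.9, 27.2 and 25.2 CPM in TDP-43Q331K. Its groups did not overlap, and they lay 0.42 apart on the log2 scale (SE 0.10, edgeR adjusted p 0.0951, DESeq2 adjusted p 0.00784). Ddit4, which encodes the mTORC1 inhibitor REDD1, was at 37.9, 38.1, 50.0 and 46.0 CPM in WT and at 55.5, 61.1, 51.0 and 50.1 CPM in TDP-43Q331K, 0.34 apart on the log2 scale (SE 0.10, edgeR adjusted p 0.135, DESeq2 adjusted p 0.0311). WT replicates 1 and 2 were lowest and TDP-43Q331K replicate 2 highest in both genes, as in Sgk1. Cebpd, a C/EBP transcription factor gene, was at 0.37 (edgeR adjusted p 0.276) and Gpd1, glycerol-3-phosphate dehydrogenase, a marker of steroid action in oligodendrocytes, at -0.15 (edgeR adjusted p 0.218). Dusp1, which encodes a phosphatase that ends MAP kinase signals, was at -0.24 (edgeR adjusted p 0.305), Per1, a clock gene with a known response element, at 0.16 (edgeR adjusted p 0.555), and Klf9 at 0.09 (edgeR adjusted p 0.563), and these were chosen after their values were seen.

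**Figure D4:**
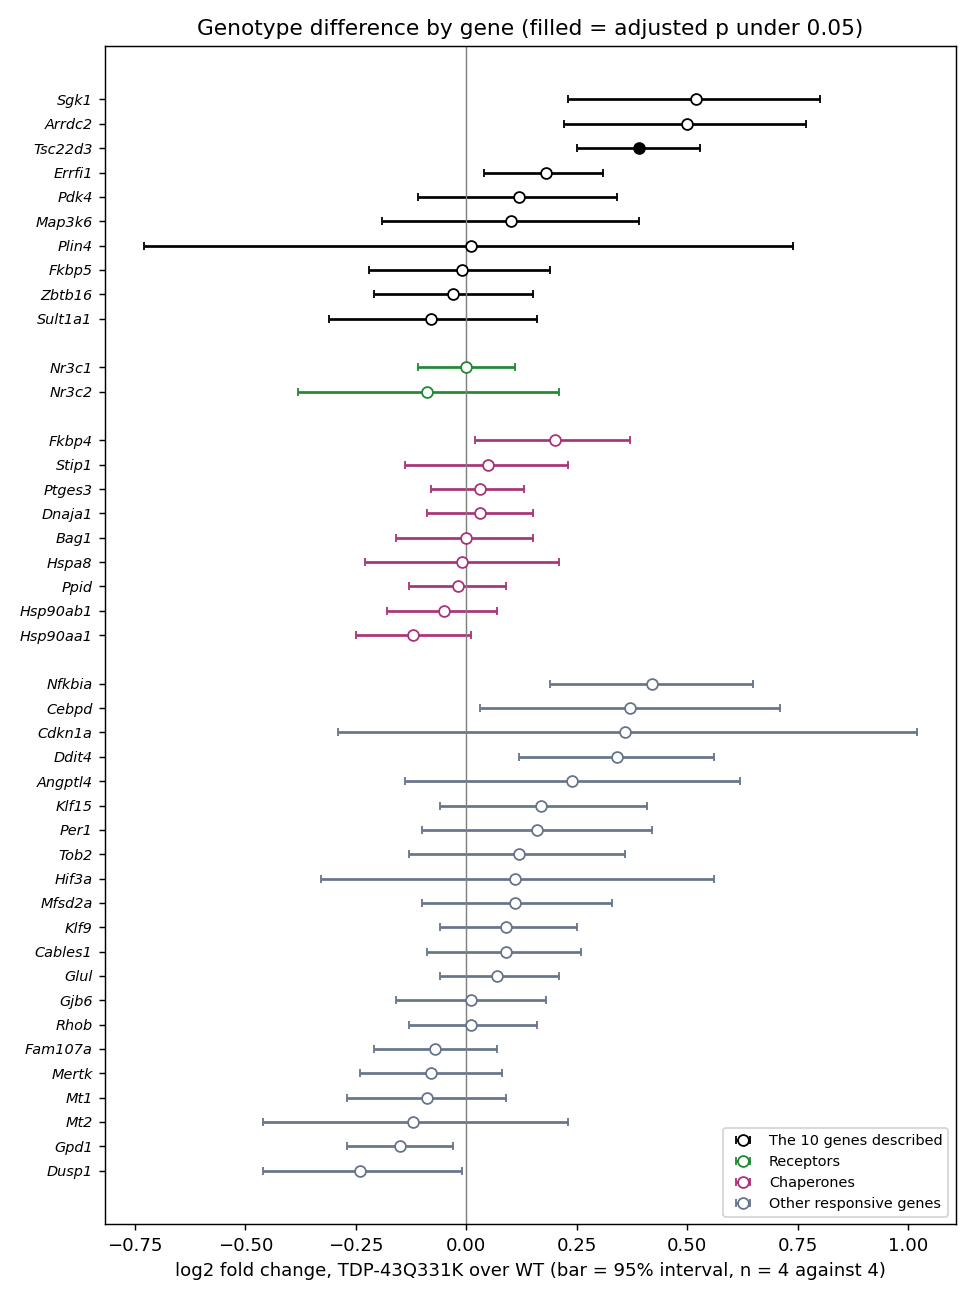
Log2 fold change of TDP-43Q331K over WT with its 95% interval for the 10 genes, the receptors, their chaperones and the wider list of responsive genes, from the edgeR fit of 4 against 4 libraries. The filled point, Tsc22d3, is the 1 gene past the test, and the intervals of Fkbp5 and Zbtb16 end at 0.19 and 0.15.

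Close relatives of the 10 genes showed 0 past edgeR's test of 21 measured, while DESeq2 called 1. At an edgeR unadjusted p under 0.05, 2 were higher and 2 lower, beside 15.7% of all genes at that mark and 4.47% called by DESeq2. Map3k15, the relative of Map3k6 that encodes ASK3 and lies on the X chromosome, had the smallest p. It was at 1.75, 2.00, 1.57 and 1.52 CPM in WT and at 2.66, 2.40, 2.71 and 3.65 CPM in TDP-43Q331K. The groups did not overlap and lay 0.74 apart on the log2 scale (SE 0.16, edgeR adjusted p 0.0675, DESeq2 adjusted p 0.00633). The sulfotransferase genes Sult2b1, at -0.33 (edgeR adjusted p 0.145), and Sult4a1, at -0.14 (edgeR adjusted p 0.239), followed, and neither overlapped between groups.

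Clock genes and immediate early genes share several targets and time courses with the hormone response. Of 17 measured clock genes, 0 passed in edgeR or DESeq2, 2 were higher at an unadjusted p under 0.05, and the median log2 fold change was 0.104. These were Cry1, at 0.36 (edgeR adjusted p 0.211), and Per2, at 0.24 (edgeR adjusted p 0.311), which encode repressors of the clock. Clock was at 0.10 and Nr1d1, which encodes the repressor REV-ERB alpha, at -0.30 (edgeR adjusted p 0.383). Of 13 immediate early genes, 0 passed in edgeR, DESeq2 called 2, and the same pair, 1 higher and 1 lower, had an unadjusted p under 0.05. Fosl2, an AP-1 subunit gene, was at 51.3 ± 9.25 CPM in WT and 74.3 ± 14.3 CPM in TDP-43Q331K (SD, n = 4, edgeR adjusted p 0.131). Nr4a2, an orphan nuclear receptor gene, was at 64.5 ± 11 CPM in WT and 44.5 ± 6.87 CPM in TDP-43Q331K (SD, n = 4, edgeR adjusted p 0.0951). Nr4a3 and Junb were at 0.28 and -0.25. Over the 8 lists from receptors to immediate early genes, 14 of 89 genes had an edgeR unadjusted p under 0.05 and DESeq2 called 5. The shares over all genes were 15.7% and 4.47%, so these counts do not set the lists apart.

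Cell type markers were read beside the 10 genes. All 12 oligodendrocyte markers had a positive log2 fold change (median 0.113), and they summed to between 2380 and 2690 CPM in WT and between 2350 and 3330 CPM in TDP-43Q331K. The 11 endothelial markers had a median of -0.044 and sums of 241 to 302 CPM and 234 to 296 CPM, and the 11 astrocyte markers a median of -0.013 and sums of 4840 to 5750 CPM and 4850 to 5500 CPM. In these 3 lists 0 markers passed edgeR's test or DESeq2's, with 2, 0 and 1 at an unadjusted p under 0.05. Of 10 microglial markers 9 were negative and of 9 neuronal markers 7 were, with sums of 346 to 379 CPM and 10900 to 11600 CPM in WT and of 317 to 375 CPM and 10100 to 11200 CPM in TDP-43Q331K. In both lists edgeR called 0. At an edgeR unadjusted p under 0.05, 2 microglial markers were lower, and 3 neuronal markers were lower and 1 higher, beside 15.7% of all genes. The higher one was Gad2, a gene of inhibitory neurons, at 0.23 (edgeR adjusted p 0.314). The microglial receptor gene P2ry12, at -0.26 (edgeR adjusted p 0.0906), and Nrgn, the gene of the neuronal protein neurogranin, at -0.40 (edgeR adjusted p 0.0678), did not overlap between groups and were called lower by DESeq2; both were picked after their values were seen. The part of these cell types in the values of the 10 genes was not tested beyond fits with oligodendrocyte or endothelial markers as a covariate. In these fits, Tsc22d3 was at 0.37 in both (edgeR adjusted p 0.0368 and 0.0383). Sgk1 was at 0.46 and 0.47 (edgeR adjusted p 0.144 and 0.145), and Arrdc2 at 0.44 in both (edgeR adjusted p 0.141 and 0.135).

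The mean standardised log2 level of the 10 genes ran from -0.67 in WT replicate 2 to 0.78 in TDP-43Q331K replicate 2. Among 15308 other genes whose mean log2 CPM was 0 or more, the 5 most like this profile over the 8 libraries were Rrp8 (Pearson's r 0.955), Flcn (0.954), Qpct (0.946), Eprs (0.935) and Ier5l (0.935). Spearman's rho of these genes was between 0.857 and 0.976. The genes were picked for the highest r among all of these, so these values describe the ranking and carry no p. None of the 5 passed the genotype test in edgeR, with log2 fold changes between 0.11 and 0.28.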

How the data were processed

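Polyadenylated RNA of 8 cortex libraries was sequenced, per the labels' protocols, and the submitters' processing notes list GRCm39, R 4.3.1, edgeR 4.4.2 and STAR 2.7.6a without roles. The sources used here do not say how reads were counted or whether strand was used. Per the file headers, the deposited tables hold raw counts for each gene and a normalised signal made by the authors, which the column names call TMM and which is the count times a constant in each column, with TMM factors of 0.987 to 1.015. Symbols were matched by identifier for 15470 of 15693 genes. Promoter windows came from RefSeq (GRCm38.p6), and exon lengths from GENCODE M21.

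Genotype was fitted in R 4.3.3 with edgeR 4.0.16 (TMM, filterByExpr, which removed 0 genes, quasi-likelihood F-test with 6 residual degrees of freedom, adjustment over all 15693 genes). SE is the log2 fold change divided by the root of F, and 95% intervals use it. The fit was tested on simulated data. Alternatives were DESeq2 1.42.0, limma-voom (limma 3.58.1), a replicate block, marker or Xist covariates, each library left out, RLE or plain library sizes, and a stricter or no low-count filter. Counts of libraries in 1 group differed with a chi-square of at least 14.6 for each degree of freedom. No library was thus a copy of another in its group, and libraries of different groups were not compared in this way. All libraries carry batch 1.

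The 10 genes and all lists were chosen with earlier results of these data known. Genes named were the 10, Tardbp, Xist, any list gene past the test and up to 4 of each pathway list with the smallest p, and the 5 with the profile most like that of the 10. Outside this rule, Dusp1, Per1, Klf9, Hif3a, Dbp, Fosb, P2ry12, Gad2 and Nrgn were named after their values were seen. Of the marker lists, those of mural cells, microglia, neurons, striatum, meninges and blood had 0 genes past edgeR's test and medians of -0.019, -0.084, -0.063, 0.097, 0.217 and 0.879.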

Additional observations from a re-analysis of the deposited data

Results flagged for a closer look

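Among 39 genes named here and 2 groups of 4 libraries each, 2 of 78 checks found a library far from the other 3 by Dixon's measure, and chance gives about 1 in 20. Hsd11b1 was at 12.2 CPM in TDP-43Q331K replicate 1 and between 14.7 and 15.1 CPM in the other 3 libraries of that group. Nr4a2 was at 48.2 CPM in WT replicate 4 and between 68.7 and 71.7 CPM in the other 3 WT libraries, and without that library its log2 fold change was -0.65 (edgeR adjusted p 0.0313). None of the 10 glucocorticoid-responsive genes had such a library.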

How the results depend on the processing

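Over 20 alternatives, Tsc22d3 kept its direction and passed in 14, and Sgk1, Arrdc2, Errfi1, Pdk4, Map3k6 (positive) and Sult1a1 (negative) kept their direction in each. The alternative without a low-count filter, counted among these, repeats the main fit, because filterByExpr removed 0 genes. Of the 10 genes, 3 were called higher with DESeq2, and 0 with a replicate block, with thalamic and olfactory markers or with choroid plexus markers as a covariate, where Tsc22d3 had an edgeR adjusted p of 0.126, 0.17 and 0.0539. Leaving out 1 library gave between 0 and 1. Over all genes, 701 were called with DESeq2, 14 with the replicate block, 11 with the thalamic and olfactory covariate and between 51 and 129 without 1 library. Of 89 pathway genes, 5 were called with DESeq2, 3 (Fosl2, Fosb and Nfkbia) with the choroid plexus covariate, and between 0 and 1 without 1 library. The sign turned, never with a call, for Fkbp5 with library size scaling (0.001) and the thalamic and olfactory covariate (0.05), for Zbtb16 with the oligodendrocyte (0.006) and the thalamic and olfactory covariate (0.091), and for Plin4 with DESeq2 (-0.003) and the oligodendrocyte (-0.303), endothelial (-0.091) and choroid plexus (-0.548) covariates. Without 1 library, Fkbp5 ran from -0.072 to 0.063, Zbtb16 from -0.093 to 0.009 and Plin4 from -0.152 to 0.309. The cause of these moves was not tested. Same-numbered libraries did not deviate from their group means together (r -0.412, 0.031, -0.0791 and 0.0328). These values cannot show whether samples of the same number were collected or processed in pairs. Plin4 had the lowest count of the 10 genes, in a range of 77 to 244, and an SD of 43.0% of the mean in WT. Map3k6, at 191 to 251 counts, had an SD of 11.9% of the mean in WT. The cause of the Plin4 spread was not tested.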
